A study of Mus musculus with 36 samples.

Results

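The genes described here encode the proteins of the mitochondrial ribosome. They were taken as all genes whose symbol is Mrpl or Mrps followed by a number and at most 1 letter, which gave 77 of the 24127 genes measured. All 77 passed the filter on low values (a mean of at least 10 normalized counts over the libraries). Of the 77, 50 encode proteins of the large subunit and 26 proteins of the small subunit. The remaining gene, Mrps36, keeps its old symbol, but its product is known as a subunit of the 2-oxoglutarate dehydrogenase complex and not of the ribosome.

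RNA was sequenced from dendritic cells grown with GM-CSF from mouse bone marrow and purified by the surface integrin CD11c. The cells were KO (Dhx58-/-, lacking the RNA helicase LGP2) or WT (C57BL/6). KO cells and WT cells were each transfected with 20 ng of PAMP RNA, a poly-U/UC RNA of hepatitis C virus that activates the RNA sensor RIG-I, or were mock controls, which the labels also call untreated. Collection was at 1, 3 and 6 h. Each of the 12 groups has 3 libraries, 36 in all. The labels call the 3 libraries biological triplicates plated for each condition, without saying whether they came from separate mice, so p-values reflect the variation among these libraries alone.

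The mitochondrial ribosome makes the few respiratory chain proteins that the mitochondrial genome encodes. Its RNA comes from mitochondrial DNA, whereas all of its proteins are encoded in the nucleus, made in the cytosol and imported. The small subunit binds the mRNA and reads its codons, and the large subunit joins the amino acids. Many of the proteins have a counterpart in bacterial ribosomes and the others were added during the evolution of mitochondria. The factors NRF1 and GABP, an ETS-family factor, and YY1 are known for acting at promoters of nuclear genes of mitochondria. Dendritic cells stimulated through innate sensors are known for a shift of their metabolism toward glycolysis.

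Promoter windows from 250 bases before to 50 bases after the gene start were present for 68 of the 77 genes in the RefSeq table (GRCm38.p6). They are shown because NRF1, ETS-family factors and YY1 are known for binding these genes, whose transcripts moved in both directions after PAMP RNA. Some genes had more than 1 window, and a gene was counted if any of its windows held the match. The NRF1 core GCGCATGCG, searched on both strands, was present in 7 of the 68 genes (10.3%), against 2.61% of 17491 genes with a window. The ETS core CCGGAAG was present in 25 (36.8%), against 12.9%, and the YY1 core AAGATGGCG in 8 (11.8%), against 2.14%. The E-box CACGTG was present in 5 (7.35%), against 8.91%. The core of the interferon regulatory factor motif GAAANNGAA, added after the responses were known, was present in 7 (10.3%), against 9.43%. The 4 windows below belong to genes with large responses, Mrpl39 and Mrpl27, which were higher with PAMP RNA at 6 h, and Mrps18b and Mrps25, which were lower. They lie at chr16:84735195-84735494 on the minus strand for Mrpl39, at chr11:94653541-94653840 on the plus strand for Mrpl27, at chr17:35916391-35916690 on the minus strand for Mrps18b and at chr6:92183974-92184273 on the minus strand for Mrps25. The windows count from RefSeq gene starts, whereas the gene positions given below are those of the GENCODE annotation, and the 2 starts can differ: the window of Mrpl39 lies within its GENCODE gene and that of Mrps18b just beyond it. Capitals mark a match to the NRF1 core in Mrpl39 and Mrps18b, on either strand, and a match to the ETS core in Mrpl27 and at the end of Mrps18b. The window of Mrps25 held none of these letters.
Mrpl39: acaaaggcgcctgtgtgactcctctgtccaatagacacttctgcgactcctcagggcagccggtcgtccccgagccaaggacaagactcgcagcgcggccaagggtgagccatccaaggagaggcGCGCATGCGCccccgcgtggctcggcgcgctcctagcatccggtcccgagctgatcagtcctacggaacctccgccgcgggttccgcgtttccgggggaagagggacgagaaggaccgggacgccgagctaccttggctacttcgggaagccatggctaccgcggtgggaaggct
Mrpl27: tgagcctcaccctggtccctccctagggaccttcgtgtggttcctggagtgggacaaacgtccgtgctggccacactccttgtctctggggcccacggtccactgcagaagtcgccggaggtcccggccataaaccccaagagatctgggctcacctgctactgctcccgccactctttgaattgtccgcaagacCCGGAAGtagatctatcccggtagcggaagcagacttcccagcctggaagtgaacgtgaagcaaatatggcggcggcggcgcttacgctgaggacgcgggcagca
Mrps18b: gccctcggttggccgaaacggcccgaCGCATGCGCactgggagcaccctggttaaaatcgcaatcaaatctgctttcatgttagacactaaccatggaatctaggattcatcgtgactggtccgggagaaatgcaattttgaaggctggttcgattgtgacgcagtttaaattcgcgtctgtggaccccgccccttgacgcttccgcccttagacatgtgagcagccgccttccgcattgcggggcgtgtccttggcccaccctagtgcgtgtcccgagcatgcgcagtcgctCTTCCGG
Mrps25: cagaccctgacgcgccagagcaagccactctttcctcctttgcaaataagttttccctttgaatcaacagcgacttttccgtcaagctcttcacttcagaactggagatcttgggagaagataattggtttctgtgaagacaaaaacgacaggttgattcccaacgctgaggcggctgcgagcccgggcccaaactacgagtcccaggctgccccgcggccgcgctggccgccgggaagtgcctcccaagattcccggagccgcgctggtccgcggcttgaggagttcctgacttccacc

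The libraries held 4740909 to 14255730 reads in genes. Summed over their markers, T cells reached 0 to 1.81 normalized counts per library, erythroid cells 0 to 2.37, B cells 1.18 to 17.8 and NK cells 0.839 to 18.8. All 11 dendritic cell markers were detected in each 6 h group. Flt3 was low among them, at 0.737 to 25.9 normalized counts. The dendritic cell markers at 6 h summed to 65104 to 65491 normalized counts in KO cells with PAMP RNA and 47264 to 48329 in KO mock cells. In WT cells they summed to 79152 to 79764 with PAMP RNA and 62726 to 64778 in mock cells. Itgax, the gene of CD11c, was lower instead. It had 2426 to 2601 with PAMP RNA against 2713 to 2775 in KO mock cells. In WT cells Itgax had 2354 to 2922 against 2985 to 3073. Cd74 overlapped between PAMP RNA and mock in WT cells. The 5 macrophage markers at 6 h summed to 13005 to 13695 normalized counts in KO cells with PAMP RNA and 5677 to 6056 in KO mock cells. In WT cells these 5 summed to 10140 to 10812 with PAMP RNA and 5423 to 5818 in mock cells. The macrophage sum was higher through Fcgr1, an Fc receptor gene singled out after its values were seen, with 6924 to 7679 in KO cells with PAMP RNA and 384 to 438 in KO mock cells, and 5204 to 5473 in WT cells with PAMP RNA and 409 to 517 in WT mock cells. The other 4 macrophage markers summed to 6016 to 6082 in KO cells with PAMP RNA and 5274 to 5618 in KO mock cells, and to 4936 to 5447 in WT cells with PAMP RNA and 5014 to 5302 in WT mock cells. The 4 neutrophil markers summed to 170 to 204 in KO cells with PAMP RNA and 105 to 112 in KO mock cells, and to 118 to 137 in WT cells with PAMP RNA and 101 to 122 in WT mock cells, mostly S100a8 and S100a9, while Elane and Mpo were at most 2.12 and 7.13 in any library. The dendritic cell sum, Fcgr1 and Mertk in both genotypes thus moved with the responses given below. So did the neutrophil sum and the sum of the other 4 macrophage markers in KO cells. Itgax and Emr1 were lower in both genotypes. The part of these markers in the responses was not tested. Dhx58 itself had 807, 985 and 1012 normalized counts in KO cells with PAMP RNA at 6 h and 808, 725 and 634 in KO mock cells. In WT cells it had 3066, 2941 and 3010 with PAMP RNA and 362, 287 and 273 in mock cells. The libraries labelled KO therefore still held Dhx58 reads, and the labels do not say whether these lie in the deleted part of the gene. In bulk RNA, fewer cells of a type and less RNA per cell cannot be told apart.

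Transcripts of the mitochondrial ribosomal proteins were of moderate and unequal level. The mean over all libraries ran from 19.3 (Mrps18c) to 579 (Mrps25) normalized counts, with a median of 221. Only Mrps18c and Mrpl47 averaged under 50 normalized counts. Levels per kilobase divide the counts of a gene by the length of its principal transcript, so the order depends on the transcript chosen. The highest were Mrps21 with 547 ± 42.7 normalized counts per kb and Mrpl33 with 543 ± 51.5 (SD over the 12 group means). The order of these 2 is within their spread. Mrpl27 followed with 472 ± 129, Mrpl54 with 469 ± 75.4 and Mrpl41 with 385 ± 99.0, again closer to each other than their spread. The lowest were Mrpl47 with 12.0 ± 2.17 normalized counts per kb, Mrps35 with 20.0 ± 4.20, Mrps5 with 22.3, Mrpl1 with 30.2 and Mrps18c with 30.3. As background, most of these proteins are present in equal number in the ribosome, and the transcript levels per kb were not equal. Across the 12 groups, 10 of the 77 genes varied more than 2-fold between their highest and lowest group mean.

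Taken over all 77 genes, the summed level depended on the scale. At 6 h the sum was 17133, 15657 and 15797 normalized counts in KO cells with PAMP RNA, against 15326, 15195 and 15330 in KO mock cells. WT cells had 16921, 15937 and 16548 with PAMP RNA, against 15230, 15687 and 15732 in mock cells. On this scale the PAMP RNA libraries lay above the mock libraries in both genotypes. As a share of all reads in genes, the same genes made up 0.163%, 0.152% and 0.153% in KO cells with PAMP RNA, against 0.209%, 0.206% and 0.205% in KO mock cells. The shares in WT cells were 0.175%, 0.168% and 0.170% with PAMP RNA, against 0.207%, 0.210% and 0.211% in mock cells. On the share scale every PAMP RNA library lay below every mock library of its genotype. Scaling all libraries to equal total reads in place of the authors' size factors shifted the medians of all genes. On the log2 scale the median of the KO response at 6 h went from -0.03 to -0.51. That of the WT response at 6 h went from -0.02 to -0.39. Relative to the median of all genes, the median of the 77 genes was 0.14 higher on the log2 scale in both genotypes at 6 h. A change of scaling factors moves all genes alike and so leaves this gap as it is. Quantile normalization, which does not, gave 0.21 in KO cells and 0.26 in WT cells. All log2 differences below use the authors' size factors unless another scaling is named.

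**Figure D1:**
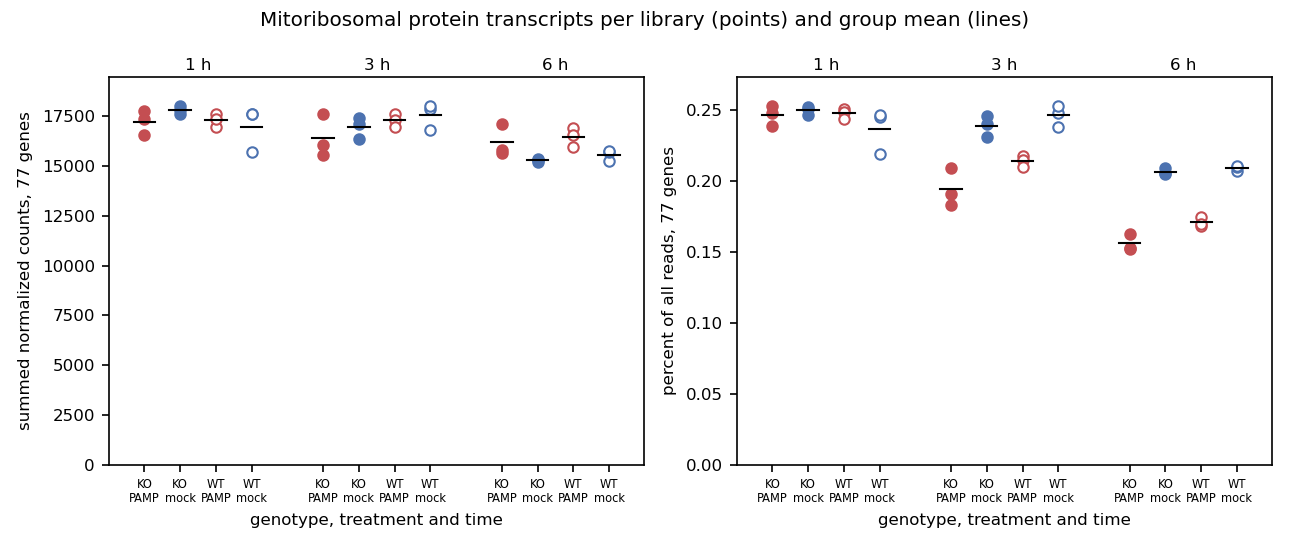
Summed normalized counts (left) and percent of all reads in genes (right) of the 77 genes in each library, by genotype, treatment and time; points are libraries and lines are means of the 3 libraries of a group. At 6 h the PAMP RNA libraries lie above their mock libraries on the left and below them on the right.

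At 1 h, PAMP RNA had not changed the transcripts of the mitochondrial ribosomal proteins to a degree that passed the test. None of the 77 was called at an adjusted p under 0.05 by limma in KO cells or in WT cells, and edgeR and DESeq2 called none either. In KO cells 1.19% of all 11853 genes tested were called higher and 0.169% lower, and in WT cells 0.801% higher and 0.143% lower. At an unadjusted p under 0.05, limma gave 0 higher and 2 lower genes in KO cells, and 4 higher and 0 lower genes in WT cells. The differences of the 77 genes ran from -0.30 to 0.17 on the log2 scale in KO cells and from -0.18 to 0.33 in WT cells.

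At 3 h a minority of the genes had changed, and fewer of them than of genes at large. In KO cells 7 of the 77 were higher with PAMP RNA (9.09%, against 23.8% of all genes tested) and 13 were lower (16.9%, against 26.9%). In WT cells 2 were higher (2.60%, against 19.6%) and 8 were lower (10.4%, against 22.0%). Scaling to equal total reads gave 1 higher and 42 lower in KO cells and 1 higher and 28 lower in WT cells. Over all genes tested, that scaling called 14.9% higher and 56.8% lower in KO cells, and 13.6% and 45.3% in WT cells. The median difference was -0.01 in KO cells and 0.01 in WT cells on the log2 scale, against -0.03 over all genes tested in both. The counts at 3 h rested on single libraries: leaving out 1 library at a time gave 3 to 10 higher and 7 to 16 lower in KO cells, and 1 to 5 higher and 4 to 8 lower in WT cells.

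Mrpl39, which encodes a mitochondrion-specific protein of the large subunit, was higher at 3 h in both genotypes and under both scalings. It had 149, 175 and 164 normalized counts in KO cells with PAMP RNA, against 109, 88.0 and 97.3 in KO mock cells, a log2 difference of 0.73 ± 0.12 (SE; limma, adjusted p = 5.67e-07). In WT cells it had 190, 172 and 146 with PAMP RNA, against 81.8, 101 and 100 in mock cells (0.84 ± 0.12, adjusted p = 3.56e-08). All PAMP RNA libraries lay above all mock libraries. Mrpl43, Mrpl49, Mrpl50, Mrps23 and Mrps25 were lower at 3 h in both genotypes, though the WT calls of Mrps23 and Mrpl49 were lost when single libraries were left out (-0.19 for each at the smallest). The WT call of Mrpl49 was also lost with no filter on low values (adjusted p = 0.0746, limma) and with DESeq2 (adjusted p = 0.0646). Its KO call was lost without the first (-0.26, adjusted p = 0.0631) or the third KO mock library at 3 h (-0.23, adjusted p = 0.0946), or the second KO PAMP RNA library at 3 h (-0.27, adjusted p = 0.051). The dendritic cell markers at 3 h summed to 46769 to 47583 normalized counts in KO cells with PAMP RNA and 37632 to 40268 in KO mock cells. In WT cells they summed to 61299 to 62263 with PAMP RNA and 53547 to 54946 in mock cells. Among them Itgax and Irf4 were lower with PAMP RNA in WT cells, and overlapped in KO cells. The macrophage markers at 3 h summed to 8705 to 8902 normalized counts in KO cells with PAMP RNA and 4934 to 5359 in KO mock cells, and to 7022 to 7249 in WT cells with PAMP RNA and 4925 to 5380 in WT mock cells. Without Fcgr1 the macrophage sums were 4807 to 5027 in KO cells with PAMP RNA and 4447 to 4867 in KO mock cells, and 4199 to 4449 in WT cells with PAMP RNA and 4487 to 4926 in WT mock cells. The part of these markers was not tested. Of the genes lower in both genotypes, Mrps25, a mitochondrion-specific protein of the small subunit, fell by 0.46 in KO cells and by 0.35 in WT cells on the log2 scale, and Mrpl43 fell by 0.36 in KO cells and by 0.31 in WT cells. Mrpl50 fell by 0.52 in KO cells and by 0.22 in WT cells, where its PAMP RNA and mock libraries overlapped. Mrps18b fell by 0.50 in KO cells, with 78.2, 136 and 106 normalized counts with PAMP RNA against 152, 140 and 151 in mock cells. Its difference was -0.29 without the first of these PAMP RNA libraries and -0.69 without the second, and was called in both fits. In WT cells Mrps18b was not called at 3 h, with 131, 148 and 169 normalized counts with PAMP RNA against 157, 151 and 154 in mock cells.

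At 6 h, 45 of the 77 genes had changed in KO cells (58.4%, against 71.7% of all genes tested) and 39 in WT cells (50.6%, against 65.4%), in both directions. In KO cells 28 of the 77 were higher with PAMP RNA (36.4%, against 35.1% of all genes tested) and 17 were lower (22.1%, against 36.5%). In WT cells 25 were higher (32.5%, against 32.1%) and 14 were lower (18.2%, against 33.3%). On the authors' scale the shares that were higher were thus close to those of all genes, and the shares that were lower were smaller. The median difference was 0.11 in KO cells, against -0.03 over all genes, and 0.12 in WT cells, against -0.02. With scaling to equal total reads the split was 5 higher and 51 lower in KO cells and 4 higher and 39 lower in WT cells. Over all genes tested, that scaling called 16.9% higher and 66.5% lower in KO cells, and 16.4% and 62.4% in WT cells. Quantile normalization, in contrast, gave 30 higher and 18 lower in KO cells and 27 higher and 11 lower in WT cells. All genes then gave 28.4% higher and 41.9% lower in KO cells, and 26.2% and 39.3% in WT cells. The genes still called higher under equal totals were Mrpl13, Mrpl27, Mrpl30, Mrpl39 and Mrps18c in KO cells, and Mrpl27, Mrpl30, Mrpl35 and Mrpl39 in WT cells.

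**Figure D2:**
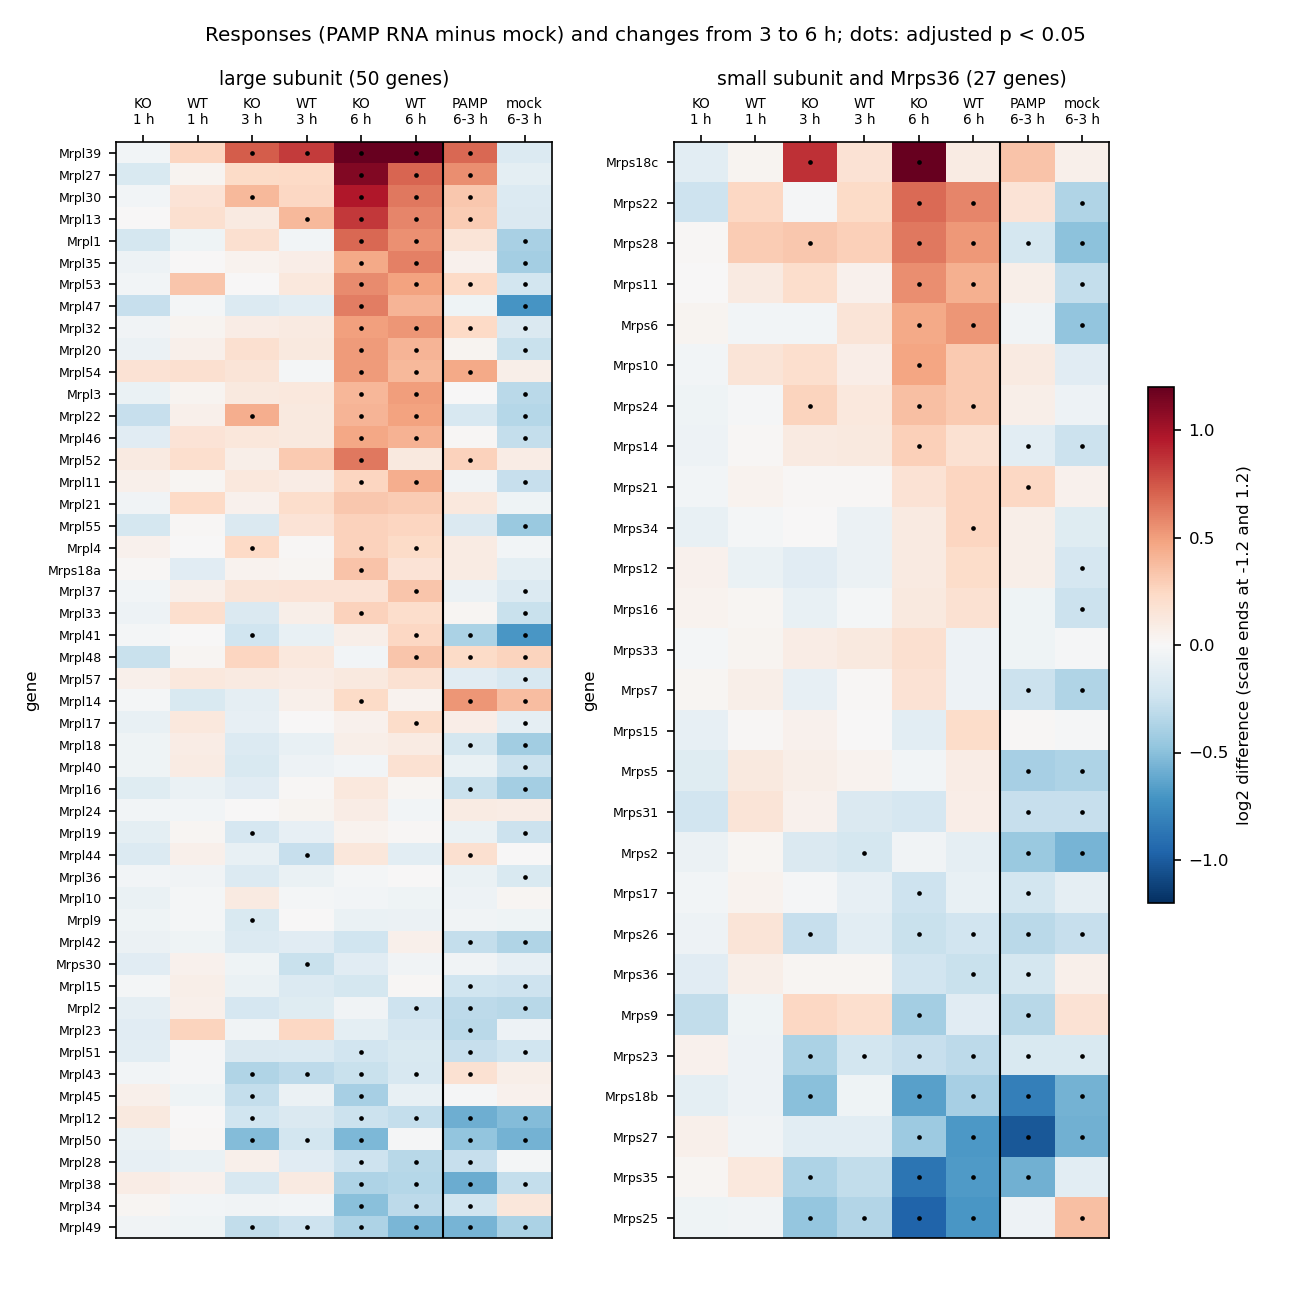
Log2 differences of the 77 genes for PAMP RNA minus mock at 1, 3 and 6 h, and for 6 h minus 3 h in PAMP RNA cells and in mock cells over both genotypes; rows are genes, ordered by their mean response at 6 h, and dots mark an adjusted p under 0.05. No dot stands at 1 h, dots are few at 3 h, and at 6 h the top and bottom rows carry dots of opposite direction; in the last column 44 of the 47 dots mark lower genes.

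The largest rise was that of Mrpl39 (chr16:84717576-84735742, minus strand). At 6 h it had 355, 306 and 289 normalized counts in KO cells with PAMP RNA, against 79.5, 79.5 and 75.8 in KO mock cells. In WT cells it had 256, 206 and 223 with PAMP RNA, against 90.6, 97.9 and 93.3 in mock cells. The PAMP RNA libraries lay far above the mock libraries in both genotypes, and those of KO cells above those of WT cells. The log2 difference was 2.00 ± 0.12 in KO cells (SE; limma, adjusted p = 1.79e-20) and 1.27 ± 0.12 in WT cells (adjusted p = 1.95e-13). No exon of Mrpl39 overlaps another gene in the GENCODE annotation.

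Mrpl27 (chr11:94653767-94660089, plus strand), the counterpart of a bacterial protein that lies near the site where amino acids are joined, came next among genes called in both genotypes. It had 591, 534 and 583 normalized counts in KO cells with PAMP RNA, against 270, 291 and 232 in KO mock cells. WT cells had 540, 562 and 489 with PAMP RNA, against 318, 319 and 337 in mock cells. The libraries did not overlap, and the log2 difference was 1.11 ± 0.10 in KO cells and 0.70 ± 0.10 in WT cells. An exon of Mrpl27 overlaps one of Eme1, which encodes part of a DNA repair nuclease, and Eme1 differed by 0.37 and 0.31 in KO and WT cells. The libraries do not mark the strand, so reads of the shared stretch cannot be told apart.

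Mrpl30 (chr1:37890477-37898535, plus strand), also with a bacterial counterpart in the large subunit, had 344, 299 and 254 normalized counts in KO cells with PAMP RNA, against 144, 180 and 136 in KO mock cells. In WT cells it had 308, 255 and 263 with PAMP RNA, against 158, 178 and 196 in mock cells. The log2 difference was 0.96 ± 0.10 in KO cells and 0.63 ± 0.10 in WT cells, with no overlap of libraries. Further large-subunit rises on the authors' scale were those of Mrpl13 (0.85 in KO cells and 0.59 in WT cells, where its overlapping neighbour Mtbp differed by 0.40 and -0.02), Mrpl1 (0.69 and 0.55), a protein of the flexible L1 stalk through which spent tRNA leaves, and Mrpl35 (0.45 and 0.60). In the small subunit, Mrps22 differed by 0.68 in KO cells and 0.59 in WT cells, Mrps28 by 0.63 and 0.52 and Mrps6 by 0.45 and 0.53, beside its overlapping neighbour Slc5a3, a transporter gene, at 0.50 and 0.47. For Mrps22 the WT libraries overlapped, with 119, 71.1 and 72.5 normalized counts with PAMP RNA against 80.5, 54.1 and 40.4 in mock cells. For Mrps6 the KO libraries overlapped, with 133, 95.9 and 93.8 against 76.1, 64.8 and 94.3.

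The clearest fall was that of Mrps25 (chr6:92169525-92184033, minus strand), the most abundant of the 77 by normalized counts. It had 380, 407 and 444 normalized counts in KO cells with PAMP RNA, against 756, 836 and 795 in KO mock cells, and 454, 458 and 466 in WT cells with PAMP RNA, against 722, 738 and 780 in WT mock cells. The PAMP RNA libraries lay well below the mock libraries in both genotypes. The log2 difference was -0.96 ± 0.06 in KO cells (SE; limma, adjusted p = 6.28e-19) and -0.70 ± 0.06 in WT cells (adjusted p = 4.23e-14). An exon of Mrps25 overlaps one of Nr2c2, a nuclear receptor gene, which differed by -1.05 and -0.89 in KO and WT cells, and reads of the overlap cannot be assigned to either gene.

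Transcripts of some other mitochondrion-specific proteins of the small subunit were lower too. Mrps35 (chr6:147042764-147073991, plus strand) had 45.2, 51.5 and 48.7 normalized counts in KO cells with PAMP RNA, against 98.1, 77.7 and 95.2 in KO mock cells, and 54.2, 53.4 and 46.6 in WT cells with PAMP RNA, against 68.8, 78.3 and 105 in WT mock cells. Its log2 difference was -0.88 ± 0.14 in KO cells and -0.68 ± 0.14 in WT cells. Mrps27 (chr13:99344786-99415562, plus strand), an RNA-binding protein with pentatricopeptide repeats, had 91.8, 73.0 and 65.3 normalized counts in KO cells with PAMP RNA, against 104, 106 and 100 in KO mock cells. In WT cells Mrps27 had 67.2, 65.2 and 69.9 with PAMP RNA, against 117, 108 and 102 in mock cells. Its log2 difference was -0.44 ± 0.12 in KO cells and -0.69 ± 0.12 in WT cells. None of the libraries of these genes overlapped between PAMP RNA and mock. In the large subunit Mrpl49 fell by 0.37 in KO cells and by 0.55 in WT cells, while Syvn1, a ubiquitin ligase gene whose exon overlaps it, differed by 0.61 and 0.48 in the opposite direction.

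**Figure D3:**
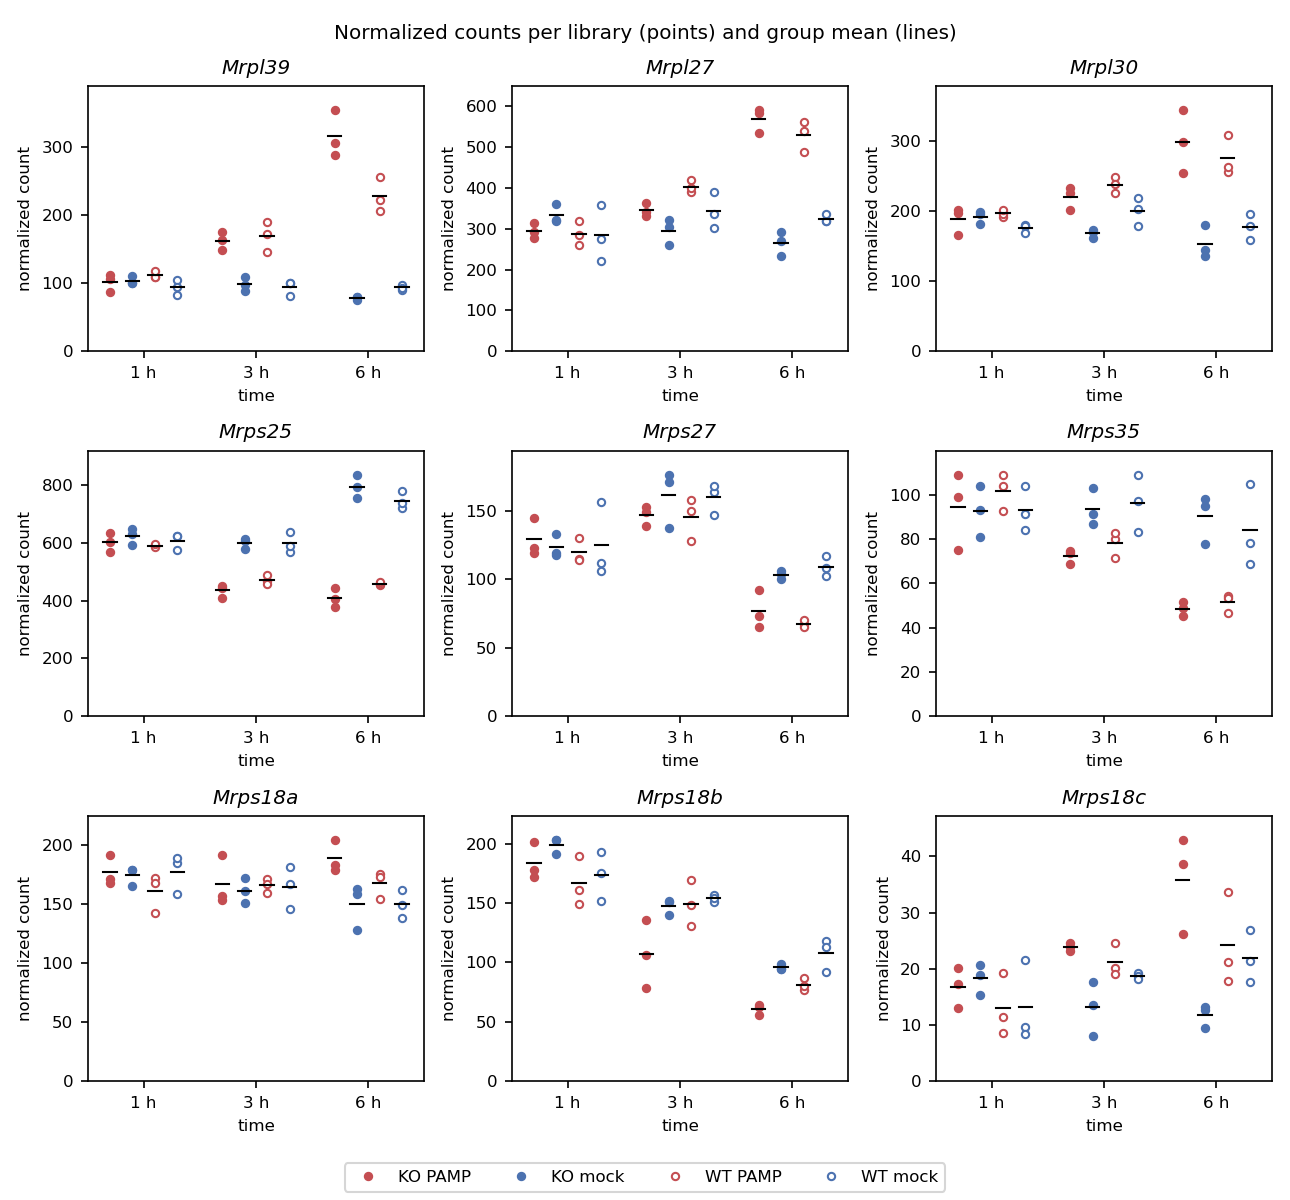
Normalized counts of 9 genes in each of the 36 libraries by time, with KO left of WT and PAMP RNA left of mock; points are libraries and lines are means of 3 libraries. Mrpl39, Mrpl27 and Mrpl30 rise above their mock cells with time, Mrps25, Mrps27 and Mrps35 lie below them at 6 h, and the 3 Mrps18 genes go different ways.

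The 3 Mrps18 genes encode related proteins that sit at different places in the ribosome: the product of Mrps18a is known to lie in the large subunit and those of Mrps18b and Mrps18c in the small subunit. Their transcripts differed in response. Mrps18b (chr17:35910379-35916389, minus strand) had 62.5, 55.8 and 64.1 normalized counts in KO cells with PAMP RNA at 6 h, against 99.0, 94.1 and 94.3 in KO mock cells, and 76.7, 86.6 and 80.3 in WT cells with PAMP RNA, against 118, 92.3 and 113 in WT mock cells. It fell by 0.65 in KO cells and by 0.40 in WT cells on the log2 scale, the WT call being lost under quantile normalization (-0.28, adjusted p = 0.0511, limma). Mrps18a (chr17:46110986-46128910, plus strand) was called higher in KO cells (0.34 ± 0.10, adjusted p = 0.0037, limma) and not in WT cells (0.16 ± 0.10, adjusted p = 0.173). The KO call of Mrps18a was lost without the second KO mock library at 6 h (0.23, adjusted p = 0.0666), and the difference was -0.15 under scaling to equal total reads. Mrps18c (chr5:100798627-100804471, plus strand), the least abundant of the 77, had 38.6, 42.9 and 26.1 normalized counts in KO cells with PAMP RNA, against 12.7, 9.50 and 13.2 in KO mock cells. In WT cells Mrps18c had 21.2, 17.8 and 33.7 with PAMP RNA, against 17.6, 21.4 and 26.9 in mock cells. Its log2 difference was 1.51 in KO cells, where the libraries were apart, and 0.10 in WT cells, where they overlapped. In the annotation an antisense transcript overlaps an exon of Mrps18b, and an unverified transcript one of Mrps18c, and reads of the shared stretches cannot be told apart.

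Mrps36, not a ribosomal protein, differed by -0.23 ± 0.11 in KO cells at 6 h (limma, adjusted p = 0.0609) and by -0.27 ± 0.11 in WT cells (adjusted p = 0.0300). The WT call of Mrps36 was lost under quantile normalization (adjusted p = 0.107, limma), with DESeq2 (adjusted p = 0.0652), and without WT PAMP RNA library 1 or 3 or WT mock library 2 or 3 at 6 h.

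Both directions occurred in both subunits at 6 h. The counts in this paragraph stand against all genes tested, of which 35.1% were higher and 36.5% lower in KO cells. In WT cells 32.1% of all genes were higher and 33.3% lower. In KO cells 20 of the 50 large-subunit genes were higher and 9 lower, and 8 of the 26 small-subunit genes were higher and 8 lower. In WT cells the large subunit had 19 higher and 7 lower and the small subunit 6 higher and 6 lower. Sorted by ancestry, 21 of the 46 genes with a bacterial counterpart were higher and 5 lower in KO cells, with a median difference of 0.20, and 7 of the 30 mitochondrion-specific genes were higher and 12 lower, with a median of -0.09. In WT cells the genes with a bacterial counterpart had 16 higher and 4 lower, with a median of 0.21, and the mitochondrion-specific genes 9 higher and 9 lower, with a median of 0.03. Ancestry was assigned by hand with earlier results of these data known, and the difference between these classes was not tested. Mrpl39, the largest rise, is itself among the mitochondrion-specific genes.

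Most of the genes called in one genotype at 6 h were called in the other too. There, 20 genes were called higher in both genotypes, which is 71.4% of those higher in KO cells and 80.0% of those higher in WT cells. Another 12 were called lower in both (70.6% of the KO calls and 85.7% of the WT calls), and 0 were called in opposite directions. At 3 h Mrpl39 was the only gene called higher in both, 5 were called lower in both, and 0 were opposite. Across the 77 genes the KO and WT responses, each with its own mock libraries, correlated at r = 0.85 at 6 h and r = 0.71 at 3 h, as a description of these libraries over genes that are not independent. At 6 h 71.7% of all genes tested were called in KO cells and 65.4% in WT cells, and 10.5% differed in response between them. The overlap and the correlation over all genes are not given here, so these values are not shown to be particular to the 77.

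A test of the difference between the KO and WT responses called 0 of the 77 genes at 1 h and 0 at 3 h by limma, edgeR or DESeq2. At an unadjusted p under 0.05, limma gave 0 higher and 4 lower at 1 h and 0 higher and 2 lower at 3 h. Over all genes tested, 0.118% were called higher and 0.00% lower at 1 h, and 2.58% higher and 0.557% lower at 3 h. At 6 h limma called 2 higher in KO cells (2.60%, against 6.67% of all genes) and 2 lower (2.60%, against 3.81%). Mrpl39 rose more in KO cells, by 0.73 ± 0.16 on the log2 scale (adjusted p = 0.00189, limma). Its mock level at 6 h was also lower in KO cells, at 79.5, 79.5 and 75.8 normalized counts against 90.6, 97.9 and 93.3 in WT cells. Mrpl50 (chr4:49512596-49521093, minus strand), a mitochondrion-specific protein of the large subunit, had 178, 180 and 164 normalized counts in KO cells with PAMP RNA, against 255, 250 and 255 in KO mock cells. In WT cells Mrpl50 had 279, 230 and 238 with PAMP RNA, against 227, 271 and 252 in mock cells. The libraries were apart in KO cells and overlapped in WT cells, and the difference between the responses was -0.53 ± 0.12 (adjusted p = 0.00227, limma). The difference for Mrps18c was 1.41 ± 0.42 (adjusted p = 0.0222, limma), and it was 1.22 to 1.27 and no longer called without the third WT mock library, the second WT PAMP RNA library, the second KO mock library or the second KO PAMP RNA library at 6 h. That for Mrps25 was -0.26 ± 0.09 (adjusted p = 0.0462, limma), which edgeR (adjusted p = 0.0724) and DESeq2 (adjusted p = 0.0837) did not call and which 17 of the 36 single-library omissions ended. For Mrpl27 the difference between the responses was 0.40 ± 0.15 and did not pass the test (adjusted p = 0.0709, limma).

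Without PAMP RNA, few of these genes differed between the genotypes. Averaged over the 3 times, 2 of the 77 were higher in KO mock cells than in WT mock cells (2.60%, against 10.5% of all genes tested) and 1 was lower (1.30%, against 11.7%). Mrps5, the counterpart of a bacterial small-subunit protein, was 0.24 ± 0.07 higher in KO mock cells (adjusted p = 0.0104, limma). At 6 h it had 88.8, 88.1 and 88.1 normalized counts in KO mock cells, against 72.1, 74.6 and 76.3 in WT mock cells, whereas at 3 h the 2 genotypes overlapped, with 96.1, 120 and 116 against 104, 101 and 96.3. Mrps15, another such counterpart, was 0.16 higher in KO mock cells (adjusted p = 0.0389, limma), a call lost with no filter on low values (adjusted p = 0.0689) and with any of 12 of the 18 mock libraries left out (0.11 without the third WT mock library at 1 h, adjusted p = 0.150). Mrpl12, the stalk protein known for contacting translation factors, was 0.18 lower in KO mock cells (-0.18 ± 0.06, adjusted p = 0.0210, limma). The call of Mrpl12 was lost without the second KO mock library at 3 h (adjusted p = 0.0642) and with no filter on low values (adjusted p = 0.0607). At 1 h the genotypes overlapped, with 585, 523 and 544 normalized counts in KO mock cells against 580, 578 and 476 in WT mock cells. At 3 h they were apart, with 482, 399 and 457 in KO mock cells against 488, 560 and 568 in WT mock cells. At 6 h its libraries were also apart, with 334, 294 and 302 normalized counts in KO mock cells against 390, 367 and 369 in WT mock cells.

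Transcripts of many mitochondrial ribosomal proteins were lower at 6 h than at 3 h in cells that received no PAMP RNA. Between these times 44 of the 77 fell in mock cells of both genotypes averaged (57.1%, against 28.4% of all genes tested) and 3 rose (3.90%, against 28.9%). The median change was -0.19 on the log2 scale, against 0.00 over all genes, and 62 of the 77 lay below 0. Scaling to equal total reads gave 51 lower and 3 higher, against 34.9% and 22.9% of all genes. Quantile normalization gave 40 lower and 4 higher, against 29.2% and 28.3%. The dendritic cell markers summed to 47264 to 48329 normalized counts in KO mock cells at 6 h, against 37632 to 40268 at 3 h. In WT mock cells they summed to 62726 to 64778 at 6 h, against 53547 to 54946 at 3 h. In both genotypes Cd74, H2-Aa, H2-Ab1, Csf2ra and Ptprc were higher at 6 h. Ccr7, Irf4, Irf8 and Itgax overlapped between these times in both genotypes. The part of these markers in the change was not tested. The falls took in 29 of the 50 large-subunit genes and 15 of the 26 small-subunit genes. Between 1 and 3 h, by contrast, 5 genes rose and 5 fell in mock cells (6.49% each, against 26.7% and 27.7% of all genes), with a median of -0.02.

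Mrpl41 (chr2:24974117-24975098, minus strand), a mitochondrion-specific protein of the large subunit, was among the largest falls. It had 197, 205 and 197 normalized counts in KO mock cells at 6 h, against 343, 314 and 301 at 3 h. In WT mock cells it had 204, 178 and 197 at 6 h, against 279, 339 and 346 at 3 h. The libraries of the 2 times did not overlap in either genotype, and the log2 change was -0.70. Mrps2, with a bacterial counterpart in the small subunit, had 211, 212 and 207 normalized counts in KO mock cells at 6 h, against 312, 315 and 314 at 3 h, and 249, 225 and 206 in WT mock cells at 6 h, against 351, 319 and 324 at 3 h (-0.56). Mrps27 changed by -0.58, Mrpl50 by -0.57, Mrps18b by -0.57 and Mrpl12 by -0.52. The 3 that rose were Mrpl14 (0.37), Mrps25 (0.36) and Mrpl48 (0.27). Mrpl14, with a bacterial counterpart at the face where the subunits meet, had 199, 225 and 219 normalized counts in KO mock cells at 6 h, against 156, 170 and 182 at 3 h, and 209, 215 and 268 in WT mock cells at 6 h, against 162, 180 and 183 at 3 h. Its exon overlaps one of Tmem63b, an ion channel gene, which changed by 0.36.

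In PAMP RNA cells the change between 3 and 6 h, a comparison added after the mock change was seen, was more mixed. Of the 77 genes 28 fell (36.4%, against 32.9% of all genes tested) and 13 rose (16.9%, against 36.5%), with a median of -0.05 against 0.02 over all genes. Scaling to equal total reads gave 57 lower and 4 higher, against 58.6% and 16.4% of all genes. Mrps27 fell by 1.02 and Mrps18b by 0.82, both also lower in mock cells. Mrpl39 rose by 0.69, Mrpl27 by 0.56, Mrpl14 by 0.53 and Mrpl54 by 0.45, and these 4 stayed called higher under equal totals. Mrpl41 fell by 0.38 in PAMP RNA cells and by 0.70 in mock cells. Mrps25 changed by -0.06 in PAMP RNA cells and by 0.36 in mock cells. Across the 77 genes the 2 changes, which share no library, correlated at r = 0.51.

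The response at 6 h and the mock change share the mock libraries of 6 h, so the same values enter both. The changes between 3 and 6 h are therefore set side by side. Mrps6 changed by -0.04 in PAMP RNA cells and by -0.47 in mock cells, Mrpl1 by 0.15 and -0.39, Mrpl35 by 0.05 and -0.41, and Mrpl3 by 0.00 and -0.32. On the authors' scale the mock change was called for each of these 4 and the PAMP RNA change was not. Under equal totals the mock changes stayed called lower, and those in PAMP RNA cells were -0.31 for Mrps6, -0.22 for Mrpl35 and -0.27 for Mrpl3, all called lower, and -0.13 for Mrpl1, which was not called. For Mrps6 the PAMP RNA libraries of WT cells held 158, 127 and 141 normalized counts at 6 h, against 131, 130 and 151 at 3 h, while the WT mock libraries held 96.5, 109 and 88.0 at 6 h, against 117, 122 and 132 at 3 h. Mrpl39, Mrpl27 and Mrpl30 differed from these in that they also rose in PAMP RNA cells themselves, Mrpl30 by 0.32 (0.05 under equal totals, where it was no longer called). The change of the response between 3 and 6 h, averaged over the genotypes, was higher for 20 of the 77 genes (26.0%, against 27.4% of all genes) and lower for 7 (9.09%, against 23.5%). Under equal totals 5 were higher and 20 lower, against 13.4% and 44.5% of all genes.

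**Figure D4:**
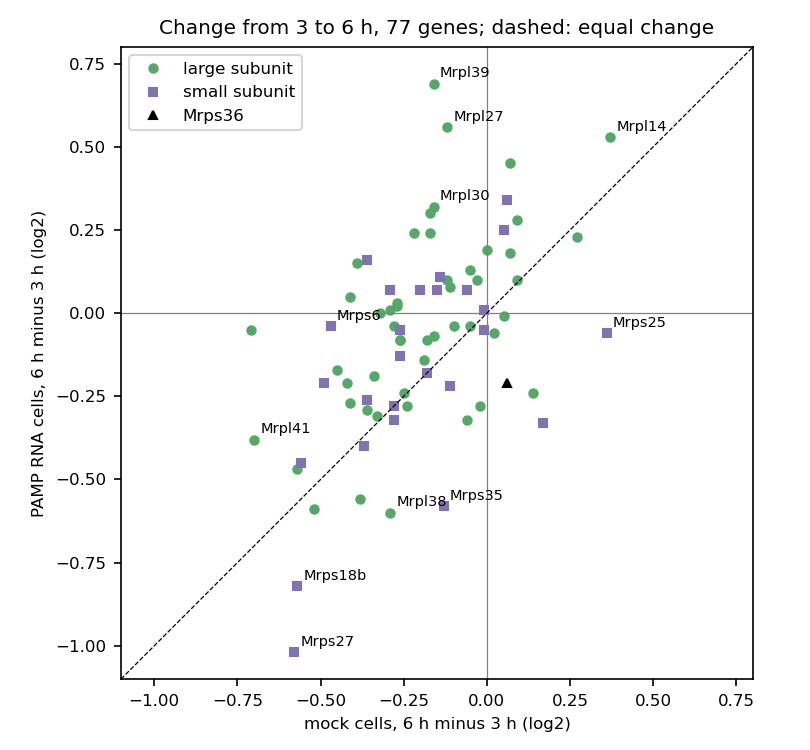
Log2 change from 3 to 6 h of each of the 77 genes in PAMP RNA cells (y) against mock cells (x), averaged over both genotypes; circles are large-subunit genes, squares small-subunit genes and the triangle Mrps36, and the dashed line marks equal change. Most points lie left of 0 on the mock axis (62 of 77), while Mrpl39, Mrpl27 and Mrpl30 lie above 0 in PAMP RNA cells and Mrps25 lies right of 0 in mock cells.

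Other genes of the mitochondrial translation machinery were counted in the same way, against 35.1% of all genes higher and 36.5% lower in KO cells at 6 h and 32.1% higher and 33.3% lower in WT cells. Of 20 genes for mitochondrial aminoacyl-tRNA synthetases and related enzymes, which load tRNAs with amino acids, 1 was higher and 12 were lower with PAMP RNA at 6 h in KO cells (5.00% and 60.0%, median -0.35), and 0 were higher and 13 lower in WT cells (0.00% and 65.0%, median -0.41). Hars2, the histidine enzyme, fell by 0.53 in KO cells and by 0.60 in WT cells, and Fars2, the phenylalanine enzyme, fell by 0.35 and by 0.55. Lars2, the leucine enzyme, rose by 0.38 in KO cells and differed by -0.05 in WT cells. Of 15 translation factors and related proteins, 1 was higher and 5 lower in KO cells (6.67% and 33.3%, median -0.26) and 2 higher and 5 lower in WT cells (13.3% and 33.3%, median -0.15). The shares lower in this list were near those of all genes, and the shares higher were smaller. Slirp and Lrpprc encode partner proteins that stabilise mitochondrial mRNAs, and they moved apart. Slirp, whose mean of 41.9 normalized counts lies under the minimum of 50 set for naming genes and which was chosen after its values were seen, had 91.8, 71.6 and 99.8 normalized counts in KO cells with PAMP RNA, against 30.5, 30.2 and 27.3 in KO mock cells, and rose by 1.54 in KO cells and by 1.51 in WT cells. Lrpprc fell by 0.79 in KO cells and by 0.47 in WT cells.

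Of 27 genes for assembly of the ribosome and modification of its RNA, 6 were higher and 9 lower in KO cells (22.2% and 33.3%, median -0.08) and 4 higher and 7 lower in WT cells (14.8% and 25.9%, median -0.07), below the shares of all genes in either direction. Nsun4, an rRNA methyltransferase, rose by 0.72 in KO cells and by 0.96 in WT cells, and Gtpbp6, a GTPase of the large subunit, by 1.01 and 0.81. Mrm1, an rRNA ribose methyltransferase, fell by 1.06 in KO cells and by 0.98 in WT cells. Of the 6 ribosomal proteins that carry other symbols (Dap3, Ptcd3, Chchd1, Aurkaip1, Gadd45gip1 and Ict1), 2 were higher and 3 lower in KO cells and 2 higher and 0 lower in WT cells. Chchd1 rose by 0.60 in KO cells and by 0.33 in WT cells, and Aurkaip1 by 0.36 and by 0.27.

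Other large complexes were set against 35.1% of all genes higher and 36.5% lower in KO cells at 6 h, and 32.1% and 33.3% in WT cells. Of 78 genes for cytosolic ribosomal proteins, 34 were higher and 10 lower in KO cells (43.6% and 12.8%, median 0.12). In WT cells 18 were higher and 7 lower (23.1% and 8.97%, median 0.08). Of 77 nuclear genes of oxidative phosphorylation, 39 were higher and 8 lower in KO cells (50.6% and 10.4%, median 0.20). In WT cells 32 were higher and 9 lower (41.6% and 11.7%, median 0.16). In mock cells between 3 and 6 h, where 28.4% of all genes fell, these complexes differed in count. Of the mitochondrial ribosomal protein genes 44 of 77 fell (57.1%), of the cytosolic ones 3 of 78 (3.85%). Oxidative phosphorylation genes had 19 of 77 lower (24.7%). Genes for mitochondrial DNA and RNA maintenance had 7 of 12 lower (58.3%), and ribosomal proteins with other symbols 3 of 6 (50%). The assembly genes had 11 of 27 lower (40.7%), the translation factors 5 of 15 (33.3%) and the synthetases 5 of 20 (25%). A fall of this share was thus not particular to the mitochondrial ribosomal protein genes. Differences between lists were not tested. RNAs encoded in mitochondrial DNA were not analysed here.

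**Figure D5:**
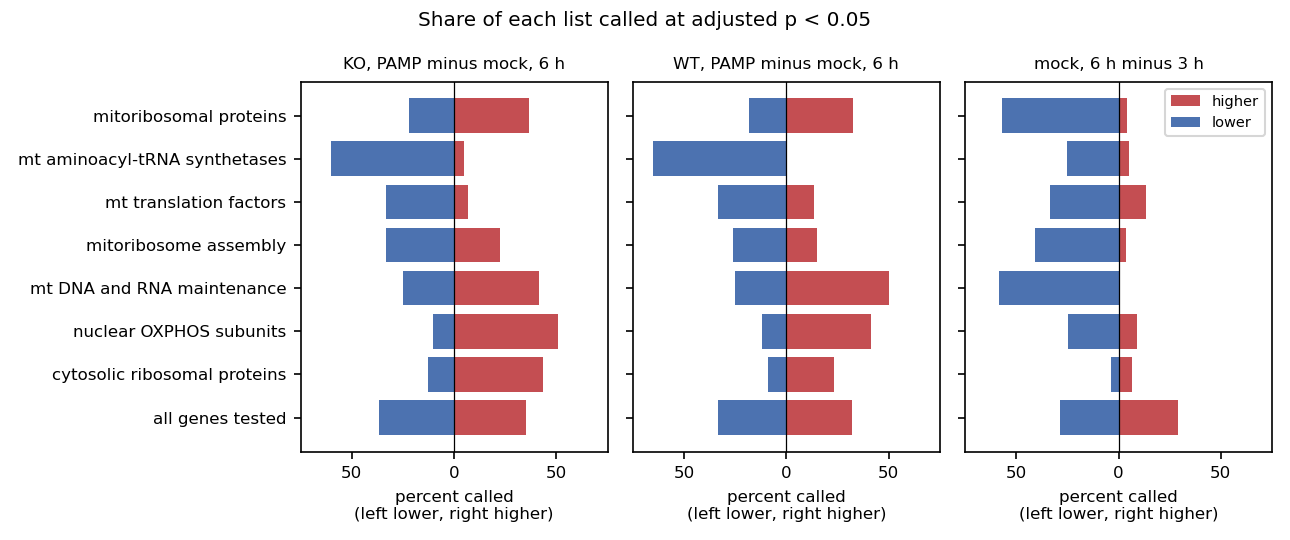
Percent of each list called higher (right of 0) or lower (left of 0) at an adjusted p under 0.05 for the KO response at 6 h, the WT response at 6 h and the change from 3 to 6 h in mock cells, with all genes tested in the bottom row. The synthetases reach 60.0% and 65.0% lower in the KO and WT responses, and the mitochondrial ribosomal proteins 57.1% lower in the mock change.

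Among regulators known to act on such genes, Max, the partner of Myc, had 2608, 2442 and 2398 normalized counts in KO cells with PAMP RNA at 6 h, against 729, 643 and 689 in KO mock cells, and rose by 1.85 in KO cells and by 1.65 in WT cells. Myc rose by 0.67 in KO cells and by 0.47 in WT cells. Gabpb2, which encodes a beta chain of GABP, fell by 0.66 in KO cells and by 0.57 in WT cells, and the coactivator gene Ppargc1b fell by 0.66 and 0.28. In mock cells Pprc1, another coactivator of this family, fell by 1.43 between 1 and 3 h and by 0.45 between 3 and 6 h, and Myc fell by 0.98 between 1 and 3 h. Of the 10 regulators tested, 5 were higher and 3 lower in the KO response at 6 h (50% and 30%, against 35.1% and 36.5% of all genes). In the WT response 3 were higher and 2 lower (30% and 20%, against 32.1% and 33.3%).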

How the data were processed

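Read counts per gene were analysed for 36 libraries in 12 groups of 3. Per the labels' protocols, libraries were made with SMARTer and Nextera XT kits and sequenced as single reads on an Illumina HiSeq. The submitters' processing notes name TopHat, Cufflinks, DESeq2 and the genome builds GRCm38 and mm10, while versions, roles and annotation are not stated there. What the authors deposited is a signal for each gene, which they name normalized DESeq counts. In every library 100% of the values were whole multiples of 1 step within 0.01 read, so reads had been divided by a size factor of the library, and whole reads were recovered.

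Members were matched by symbol. Differences were tested with limma 3.58.1 (R 4.3.3) with a mean-variance trend on log2(normalized count + 1), which understates the change of low genes. The fit covered all 11853 genes with a mean of at least 10 normalized counts, used 12 group means and left 24 residual degrees of freedom. Two-sided p-values were adjusted over all genes tested by Benjamini and Hochberg, and an adjusted p under 0.05 was a call. A response is the PAMP RNA mean minus the mock mean of the same genotype and time, and errors of log2 differences are SE. Alternatives were a pseudocount of 5, no filter on low values, a minimum mean of 50, quantile normalization, scaling to equal total reads, the replicate number as a block, edgeR 4.0.16 and DESeq2 1.42.0 on the recovered reads, and leaving out each library. The limma fit was also run on simulated reads with few genes changed and the same spread for every gene. Far more genes were called in the data, so that run does not show how the fit behaves here.

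Genes were named by rule: in each comparison up to 10 rises and 10 falls among called genes with a mean of at least 50 and, for responses, libraries that do not overlap; the 5 highest and 5 lowest per kb; the Mrps18 genes; Mrps36; up to 4 genes of each list; and the regulators. Mrps6, Mrps22, Mrpl50 at 3 h and Slirp were named beside the rule, after their values were seen. The genes, lists, markers and tests were chosen with earlier results of these data known, and the changes of the response and of PAMP RNA cells from 3 to 6 h were added after seeing the data. Lengths of the principal transcripts and exon overlaps are from GENCODE on GRCm38, and subunit and ancestry were assigned by hand.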

Additional observations from a re-analysis of the deposited data

Results flagged for a closer look

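The test of the difference between the KO and WT responses at 6 h (limma, adjusted over all genes tested) called 4 of the 77 genes, against 10.5% of all genes. The log2 differences were 0.73 for Mrpl39, -0.53 for Mrpl50, 1.41 for Mrps18c and -0.26 for Mrps25. Mrpl39 and Mrpl50 kept their calls under all 8 alternative settings and with each of the 36 libraries left out. Mrps18c rests on few reads, and its call was lost with no filter on low values and without the third WT mock library, the second WT PAMP RNA library, the second KO mock library or the second KO PAMP RNA library at 6 h, while DESeq2 gave it no adjusted p. The call of Mrps25 was lost with edgeR (adjusted p = 0.0724), DESeq2 (adjusted p = 0.0837) and no filter on low values (adjusted p = 0.0517), and with 17 of the 36 libraries left out in turn (adjusted p up to 0.148).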

How the results depend on the processing

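Replicate numbers gave no pairing: the residual correlation between same-numbered libraries had a median of 0.002 (-0.114 to 0.183), and 12 of 36 libraries were closest to their own number. With the replicate number as a block, 2 genes were lower in KO mock cells than in WT mock cells, in place of 1, and no other count changed by over 1.5 times. Scaling to equal total reads changed most. It gave 1 higher and 42 lower for the KO response at 3 h, 1 and 28 for the WT response at 3 h, 5 and 51 for KO at 6 h, 4 and 39 for WT at 6 h, 4 and 57 for PAMP RNA cells from 3 to 6 h, 5 and 20 for the response at 6 h minus 3 h, 5 lower for the KO minus WT response at 6 h, and 4 higher for KO minus WT mock cells. For the last 2, all genes gave 10.5% lower and 11.8% higher under this scaling, and the shares for the others are given above. The medians under it were -0.26 (KO, 3 h), -0.17 (WT, 3 h), -0.37 (KO, 6 h), -0.25 (WT, 6 h), -0.09 for the KO minus WT response at 3 h and at 6 h, -0.25 (mock, 3 to 6 h), -0.32 (PAMP RNA, 3 to 6 h) and -0.08 (response, 6 h minus 3 h). Under it Mrps18a in KO cells at 6 h (-0.15) and, in PAMP RNA cells from 3 to 6 h, Mrps21 (-0.02), Mrpl32 (-0.03) and Mrpl53 (-0.04) turned from higher to lower values. The cause was not tested.

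Genes higher in the WT response at 3 h (2) were 1 with no filter, 4 with a minimum mean of 50, 5 under quantile normalization, 5 with edgeR and 4 with DESeq2. Those of the KO minus WT response at 6 h (2 higher, 2 lower) were 1 higher with no filter, a minimum of 50 or DESeq2, and 1 lower with no filter, edgeR or DESeq2. For KO minus WT mock cells there was 1 higher and 0 lower with no filter, 4 higher with edgeR, and 2 lower with a minimum of 50, quantile normalization or edgeR.

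Leaving out 1 library gave, for the KO response at 3 h, 3 to 10 higher, 7 to 16 lower and a median of -0.09 to 0.02; for WT at 3 h, 1 to 5 higher and 4 to 8 lower; for KO at 6 h a median of 0.05 to 0.12; for the KO minus WT response 0 to 1 lower and a median of -0.09 to -0.00 at 3 h, and 1 to 3 higher and 1 to 3 lower at 6 h; for KO minus WT mock cells 1 to 3 higher and 0 to 3 lower; and for mock cells from 1 to 3 h 4 to 8 lower. The other counts and medians stayed within 1.5 times or the spread. Of 134 differences of named genes, 26 lost a call without some library. Low reads limit Mrps18c and Mrpl47.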

Other observations

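Genes that keep and transcribe mitochondrial DNA and process its RNA changed at 6 h in both directions. Of the 12 tested, 5 were higher and 3 lower with PAMP RNA in KO cells (41.7% and 25%, against 35.1% and 36.5% of all genes). In WT cells 6 were higher and 3 lower (50% and 25%, against 32.1% and 33.3%). Pnpt1, which encodes the mitochondrial polynucleotide phosphorylase, had 583, 498 and 492 normalized counts in KO cells with PAMP RNA, against 82.9, 67.4 and 81.1 in KO mock cells, and 386, 365 and 443 in WT cells with PAMP RNA, against 73.0, 82.0 and 74.5 in WT mock cells. It rose by 2.75 in KO cells and by 2.36 in WT cells on the log2 scale. Tefm, the transcription elongation factor of mitochondria, rose by 1.13 in KO cells and by 1.00 in WT cells. Peo1, the mitochondrial DNA helicase whose exon overlaps Mrpl43, fell by 1.41 in KO cells and by 1.04 in WT cells. Polrmt, the mitochondrial RNA polymerase, fell by 0.97 in KO cells and by 0.79 in WT cells. In mock cells between 3 and 6 h, 7 of the 12 fell (58.3%, against 28.4% of all genes) and 0 rose (0%, against 28.9%). The share that fell was near the 57.1% of the mitochondrial ribosomal protein genes.

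Cytosolic ribosomal protein genes, unlike the mitochondrial ones, differed between the genotypes in mock cells in count. In KO mock cells 28 of 78 were lower (35.9%, against 11.7% of all genes tested) and 0 were higher (0%, against 10.5%). Their median was -0.09. Of the 77 mitochondrial ribosomal protein genes 1 was lower (1.30%) and 2 were higher (2.60%). The difference between these lists was not tested. The dendritic cell markers summed to 37632 to 48329 normalized counts in KO mock libraries and 53547 to 64778 in WT mock libraries, and their part in it was not tested.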
